A study of Homo sapiens with 6 samples.

Results

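EGFR, AXL, MET, CD44, CAV1, VIM, ZEB1 and SNAI2 are 8 receptor, membrane and mesenchymal genes that are widely used to describe triple-negative breast cancer cells. They were taken by name from the 60708 genes counted in each of 6 libraries, and every one of them was detected in every library. MDA-MB-231 is an established human line of triple-negative breast cancer (TNBC), a tumor type without estrogen receptor, progesterone receptor or amplified HER2. The cells were transfected at 25 nM, either with a mimic of miR-99b-5p or with a scrambled oligonucleotide, and harvested after 18 hours. AGO2, the protein that holds a microRNA against its target, was then pulled down with an antibody, which gives the AGO2-IP, and the RNA left in the lysate is the flow-through. Mimic-transfected cells gave 2 AGO2-IP and 2 flow-through libraries, labelled as biological replicates 1 and 2, and cells with the scrambled oligonucleotide (control) gave 1 AGO2-IP and 1 flow-through library. The control libraries are named flow-through and AGO2-IP in their sample titles, whereas a supplementary table of the study lists both as biological replicates of the control without naming a fraction. The study's methods also describe 2 biological replicates of the AGO2-IP for each condition, while only 1 control library is titled AGO2-IP. The titles were followed here, and every value set against a control library carries this doubt. The comparison asks which mRNAs were found with AGO2, and whether the mimic altered this. All groups are of this 1 cell line and all cells were transfected, and pull-downs with IgG beads were not analysed here.

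As background, EGFR, AXL and MET are receptor tyrosine kinases. EGFR binds EGF-family ligands, AXL binds GAS6 and MET binds HGF, and each passes its signal on through adaptors to RAS-MAPK and other pathways. CD44 is a receptor for hyaluronan, a sugar polymer of the matrix, and CAV1 is the coat protein of caveolae, small pits of the cell membrane. VIM encodes the intermediate filament protein vimentin, while ZEB1 and SNAI2 (Slug) encode transcription factors that repress epithelial genes such as CDH1. These genes are used as a signature of cells that have passed through an epithelial-to-mesenchymal transition.

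The transfected microRNA and its kin are shown because a transcript pairs with them through the seed. The mature sequences below are from RefSeq (GRCh38.p14), 5′ to 3′, with bases 2 to 8, the seed, in capitals. The first comes from chromosome 19 (51692618 to 51692639, plus strand), and the others share its seed.
hsa-miR-99b-5p: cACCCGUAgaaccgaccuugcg
hsa-miR-99a-5p: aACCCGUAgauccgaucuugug
hsa-miR-100-5p: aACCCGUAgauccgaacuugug

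A transcript that pairs with bases 2 to 7 of miR-99b-5p holds ACGGGT, and TACGGGT pairs with the whole seed. Both were searched for on the transcript strand alone, in the canonical GENCODE 44 transcripts of 19480 protein-coding genes, and each match of the longer motif is also one of the shorter. The shorter motif was found in no 3′ untranslated region (3′UTR) of the 8 genes, against 5.74% of all 19480 3′UTRs, and the longer in none of the 8 whole transcripts, against 2.73% of all. Over whole canonical transcripts ACGGGT occurred once among the 8 genes, in AXL, against 15.2% of all transcripts. The AXL match lies upstream of the 3′UTR, at bases 1357 to 1362 of the transcript, and is printed with its neighbouring bases, the match in capitals.
AXL, bases around 1357 to 1362: ctgcagggggACGGGTctgtgtcc

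Among all annotated transcripts of each gene, ACGGGT was present in 4 of 5 for AXL, 1 of 13 for EGFR, 1 of 9 for CAV1 and 1 of 3 for SNAI2, and in none of MET, CD44, VIM and ZEB1. A match is a stretch of letters and not a measured site, and pairing outside the seed was not searched for.

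ZEB1 is known as a target of the miR-200 family, which keeps epithelial cells epithelial. The 2 seeds of this family are shown, again from RefSeq with bases 2 to 8 in capitals.
hsa-miR-200c-3p: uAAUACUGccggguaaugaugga
hsa-miR-141-3p: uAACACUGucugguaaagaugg

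The first seed pairs with CAGTATT, which occurred 6 times in the 3′UTR of ZEB1. Of the 19480 3′UTRs 16.1% held any, and 2, ZEB1 included, held at least as many. The second seed pairs with CAGTGTT, which occurred 3 times in the 3′UTR of ZEB1. Any was held by 18.2% of 3′UTRs, and 196, ZEB1 included, held at least as many. EGFR held 1 CAGTATT and 2 CAGTGTT in its 3′UTR and SNAI2 held 1 CAGTATT, while AXL, MET, CD44, CAV1 and VIM held neither. The 3 ZEB1 matches of CAGTATT that are followed by an A begin at bases 369, 1243 and 1313 of the 3′UTR and are printed in that order.
ZEB1, 3′UTR from 369: tttatcttatCAGTATTatcactct
ZEB1, 3′UTR from 1243: ttttacctatCAGTATTattttatt
ZEB1, 3′UTR from 1313: tcaaacctggCAGTATTaataccct

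The levels of these microRNAs were not measured in the files used here.

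The libraries differed in depth and make-up. The mimic libraries held 38022779 to 48544756 read pairs counted on genes, and the control libraries 7772149 and 8076375. In the control libraries 92.3% and 95.03% of the read pairs were not counted on a gene, against 21.4% to 47.2% in the mimic libraries, and genes of the mitochondrial genome took 43.4% of the gene counts in control flow-through, 3.48% in control AGO2-IP, and no more than 0.125% in the mimic libraries. Mimic and control libraries therefore differ in make-up as well as in transfection, and the 2 cannot be told apart. The mimic flow-through libraries also differed from each other, along the GC content of the transcripts, as described with the values it touches. Counts are shares of a library, so less of a transcript and more of all other RNA cannot be told apart, nor can fewer cells in a state and less RNA per cell.

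The 8 genes that the label calls for were present, while other mesenchymal and epithelial markers went both ways. All 8 genes were detected, with the lowest count in any library at 122 (ZEB1 in the control AGO2-IP, 95% Poisson interval 101 to 146). The epithelial genes CDH1, ESRP1, GRHL2, OVOL1, RAB25 and CRB3 each summed to under 200 counts over the 6 libraries, and CDH1, the cadherin of epithelial junctions, had 6 to 47 counts in a library. ESR1 and PGR, the hormone receptors, had at most 23 and 25 counts in a library. ERBB2 (HER2) was detected at 37.7 to 172 counts per 1000000 gene counts (CPM), and the keratin genes KRT8, KRT18 and KRT19 at 194.5 to 920 (919.6), 79.4 to 428 and 105 to 417 CPM, so epithelial genes were not absent as a class. The epithelial gene CLDN4 had 14.2 to 175.5 CPM. The mesenchymal genes CDH2, SPARC and THY1 each summed to under 200 counts over the 6 libraries, as CDH1 did. The 15 epithelial genes summed to 517 to 592 CPM over the mimic AGO2-IP libraries, 1139 to 1890 over the mimic flow-through, and 552 and 817 in control flow-through and control AGO2-IP. Of 5 genes of blood, endothelium and liver, PTPRC, CD3E, HBB and ALB had at most 53 counts in a library, and PECAM1 reached 398 in the first mimic flow-through.

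Levels of different genes were compared per length, as reads per kilobase of merged exons per 1000000 gene counts (RPKM). In the mimic flow-through AXL was the most abundant of the 8, at 254 RPKM (geometric mean, range 246 to 262), followed by CAV1 at 113 (89.3 to 143) and VIM at 68.8 (41.3 to 115). CD44 followed at 19.5 RPKM (12.9 to 29.5). EGFR at 9.18, SNAI2 at 9.12, MET at 7.63 and ZEB1 at 3.75 RPKM came last, and each of these neighbours overlapped the next over the 2 replicates, as CAV1 overlapped VIM. In the mimic AGO2-IP the order began with AXL at 106 RPKM (101 to 110), CAV1 at 50.8 and VIM at 48.8, and it ended with ZEB1 at 5.16 and EGFR at 4.55. MET came next after VIM there, at 11.9 RPKM, and from MET down all neighbours overlapped. In both control libraries AXL was again first, at 266 RPKM in the flow-through and 532 (531.5) in the AGO2-IP, CAV1 was next and ZEB1 last. Per longest transcript instead of merged exons, CAV1 stood just above AXL in the control flow-through, at 298 against 290 (289.7).

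**Figure D1:**
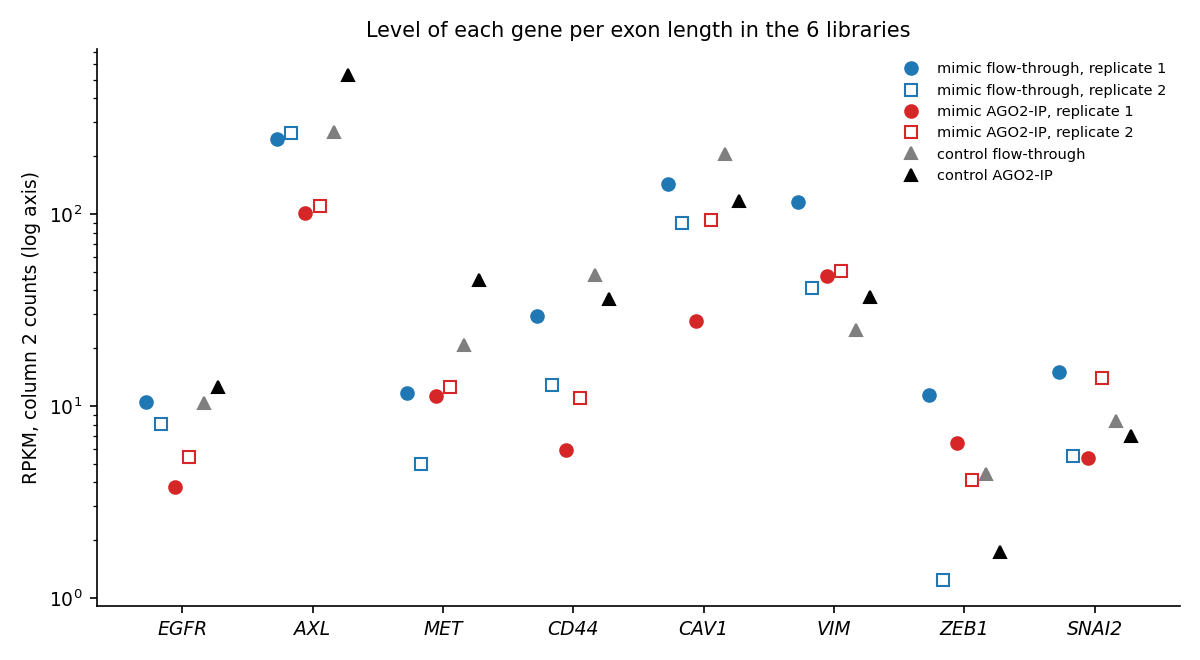
Level of the 8 genes in the 6 libraries, in RPKM from column 2 counts on a log axis. Each point is 1 library (blue, mimic flow-through; red, mimic AGO2-IP; filled circle, replicate 1; open square, replicate 2; triangles, control). AXL sat highest in every library, and the flow-through replicates of ZEB1 lay 8.90-fold apart in counts.

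The place of VIM in this order depended on how read pairs were counted. Column 2 of the deposited tables counts a pair when it falls on 1 gene alone, whatever its strand, and columns 3 and 4 count each strand by itself. VIM (ENSG00000026025.16, chromosome 10 from 17228241 to 17237593, plus strand, GRCh38) shares 1275 of its 5176 exon bases with 2 antisense lncRNA genes, VIM-AS1 and ENSG00000234961, and pairs on these bases are left out of column 2. With columns 3 and 4 summed VIM was the first of the 8, at 381 RPKM over the mimic flow-through libraries (363 to 400.1) and 153 over the mimic AGO2-IP libraries. AXL followed with 243 and CAV1 with 100.5 RPKM in the mimic flow-through. In the sum a pair on the shared bases counts in full both for VIM and for the antisense gene, so the level of VIM then holds every shared pair, antisense ones included, and column 2 holds none of them. It is given here as a check on the counting.

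In mimic-transfected cells no gene of the 8 was called between AGO2-IP and flow-through. A gene was called where its log2 fold change reached 1 or -1 with an adjusted p of at most 0.05 by edgeR's quasi-likelihood test, which called 0.245% of 13078 genes higher and 0.413% lower in the AGO2-IP. DESeq2 also called 0 of the 8, though it called more genes in all, 882 of 13078 higher and 1112 lower. AXL alone had an unadjusted p under 0.05 from edgeR, on the lower side, as did 13.1% of all genes tested. The median log2 fold change of the 8 was -0.77, against -0.11 over all genes tested, with 7 values below 0. On the normalized scale both AGO2-IP libraries lay below both flow-through libraries for 4 genes (EGFR, AXL, CD44 and CAV1), where 28.5% of all genes did so, and above both for MET, where 28.1% did so. In VIM, ZEB1 and SNAI2 the fractions overlapped.

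Of the receptors, EGFR (ENSG00000146648.20, chromosome 7 from 55019017 to 55211628, plus strand) had 167 and 128 CPM in the mimic flow-through, 60.5 and 86.8 in the mimic AGO2-IP, 165 in the control flow-through and 201 in the control AGO2-IP. Both mimic AGO2-IP libraries were the lowest of the 6, and neither overlapped a flow-through library. The mean was 73.7 ± 18.6 CPM in the mimic AGO2-IP and 148 ± 27.3 over the flow-through libraries (SD, n = 2 each). On the log2 scale this was a difference of -1.02 with a standard error of 0.594, and the adjusted p was 0.307 (edgeR, Benjamini-Hochberg adjustment). Within replicates 1 and 2 the log2 difference was -1.29 and -0.82.

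AXL (ENSG00000167601.12, chromosome 19 from 41219223 to 41261766, plus strand) had 1261 and 1347 CPM in the mimic flow-through, 520.5 and 567 in the mimic AGO2-IP, 1366 in the control flow-through and 2729 in the control AGO2-IP. Both mimic AGO2-IP libraries were well below the other 4, the control flow-through was close to the mimic flow-through, and the control AGO2-IP stood above all others. AXL had the lowest fitted value of the 8, at -1.33 with a standard error of 0.582 (unadjusted p = 0.0429 and adjusted p = 0.195 by edgeR). Over the 4 pairings of a mimic AGO2-IP with a flow-through library it ran from -1.69 to -0.91. Without the first mimic flow-through library AXL was called, at -1.64 (adjusted p = 0.0164 by edgeR), a setting that called 20.2% of all genes higher and 20.6% lower, and without the second it was -1.03 (adjusted p = 0.1695).

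MET (ENSG00000105976.16, chromosome 7 from 116672196 to 116798377, plus strand) had 84.6 and 35.9 CPM in the mimic flow-through, 81.9 and 90.9 in the mimic AGO2-IP, 151 (150.5) in the control flow-through and 329 in the control AGO2-IP. It was the only one of the 8 with a fitted value above 0, at 0.57 (standard error 0.601, adjusted p = 0.586 from edgeR). The fractions did not overlap after TMM scaling, where the closest pair differed by 0.13, but in plain CPM the first flow-through library lay between the 2 AGO2-IP libraries. The second flow-through library was the lowest of the 6, and without it the value was 0.21.

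CD44 (ENSG00000026508.20, chromosome 11 from 35138882 to 35232402, plus strand) had 294 and 129 CPM in the mimic flow-through, 59.0 and 109.8 in the mimic AGO2-IP, 478 in the control flow-through and 359.6 in the control AGO2-IP. Both control libraries were above all mimic libraries, and both mimic AGO2-IP libraries below both flow-through libraries. The fitted log2 value was -1.27, with a standard error of 0.634 and an adjusted p of 0.243 by edgeR. It was larger within replicate 1, at -2.14, than within replicate 2, at -0.48.

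CAV1 (ENSG00000105974.13, chromosome 7 from 116524994 to 116561179, plus strand) had 552 and 345 CPM in the mimic flow-through, 107 and 360.4 in the mimic AGO2-IP, 791 in the control flow-through and 453 in the control AGO2-IP. The first mimic AGO2-IP library was far below the rest, 2.74-fold below the second in counts, and in plain CPM the second lay between the flow-through libraries. After TMM scaling both were below, by as little as 0.19. The fitted log2 value of -0.92 had a standard error of 0.681 and an adjusted p of 0.419 by edgeR. It rested mostly on 1 library, and was -0.30 without the first AGO2-IP library and -2.14 without the second.

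VIM, on the counts of column 2, had 594 and 214 CPM in the mimic flow-through, 245 and 260 in the mimic AGO2-IP, 129 in the control flow-through and 191 in the control AGO2-IP. The AGO2-IP replicates agreed closely, while the flow-through replicates lay 2.69-fold apart in counts, on either side of them. This gave a log2 value of -0.61, with a standard error of 0.602 and an adjusted p of 0.552 by edgeR. It was -0.09 without the first flow-through library and -1.05 without the second. Counted by strand and summed, VIM had 1879 and 2071 CPM in the mimic flow-through and 786 and 796 in the mimic AGO2-IP, with no overlap. On these counts the log2 value was -1.41, with a standard error of 0.573, an unadjusted p of 0.0328 and an adjusted p of 0.1804 by edgeR, still not a call.

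One library stood apart in how column 2 compared with the strand columns, the second mimic flow-through. Column 2 held 9.27% of the summed strand counts of VIM in it, against 23.0% to 29.5% in the other 5 libraries. ZEB1, whose exons share 396 bases at their 5′ end with ZEB1-AS1, showed a smaller change of the same kind, with 73.5% in that library and 89.1% to 97.4% in the others. For CD44 it was the reverse, with 98.9% in that library and 90.7% to 93.2% elsewhere. MET, CAV1 and SNAI2 share no exon bases with another gene in the tables, and column 2 held at least 99.8% of their strand counts in every library.

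Of the 2 transcription factors, ZEB1 (ENSG00000148516.23, chromosome 10 from 31318495 to 31529814, plus strand) had 98.3 and 10.7 CPM in the mimic flow-through, 55.7 and 35.8 in the mimic AGO2-IP, 38.3 in the control flow-through and 15.1 in the control AGO2-IP. The flow-through replicates were the highest and the lowest of all 6 libraries, with 4620 and 519 counts. The fitted log2 value of -0.11 had the widest standard error of the 8, at 0.803, and an adjusted p of 0.948 by edgeR. Its direction was that of whichever flow-through library was kept, since it was 1.76 without the first (adjusted p = 0.0269 from edgeR) and -0.94 without the second (adjusted p = 0.220). The call without the first compares both AGO2-IP libraries with 1 flow-through library, assumed to vary as they do.

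SNAI2 (ENSG00000019549.13, chromosome 8 from 48917598 to 48921740, minus strand) had 49.5 and 18.1 CPM in the mimic flow-through, 17.5 and 46.1 in the mimic AGO2-IP, 27.3 in the control flow-through and 22.9 in the control AGO2-IP. Each mimic fraction held 1 high and 1 low library, in opposite replicates, so the difference was -1.32 within replicate 1 and 1.09 within replicate 2. The fitted log2 value was close to 0, at -0.01, with a standard error of 0.708 (adjusted p = 0.992 by edgeR).

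The spread between the flow-through replicates followed GC content. Over 11747 protein-coding genes the log2 difference of replicate 2 minus replicate 1 correlated with the GC content of the canonical transcript, with a Spearman's rho of 0.755 across genes, which are not independent. With these genes cut into 10 equal groups by GC content, the median difference rose from -1.69 in the lowest group to 1.62 in the highest, while that between the AGO2-IP replicates stayed between -0.05 and 0.06. The 8 genes ran from 38.9% GC (ZEB1) to 54.3% (VIM), around a median of 48.0% for the protein-coding genes, and over the 8 the rho was 0.357. EGFR, AXL, MET, CD44 and SNAI2 lay between the quartiles of their GC group, CAV1 above them, and VIM and ZEB1 below. ZEB1 differed by -2.702 where its group's median was -1.26, and VIM by -0.98 where its group's median was 0.48. For VIM this held on column 2 counts alone, since by the sum of columns 3 and 4 it differed by 0.61, between the quartiles of its group, while ZEB1 stayed below (-2.30) and CAV1 above (-0.19).

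**Figure D2:**
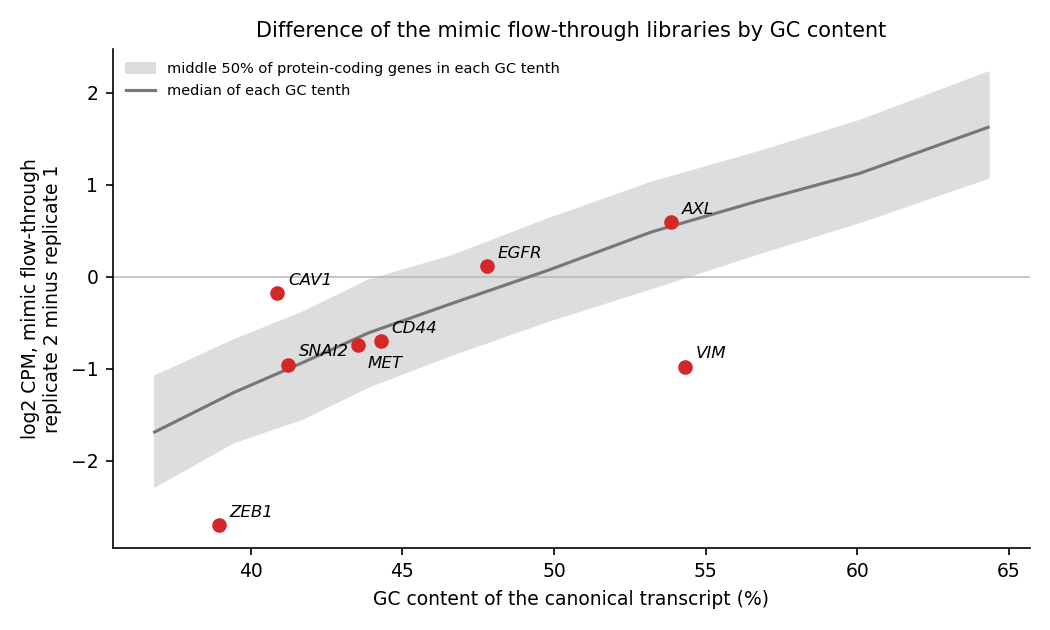
Replicate 2 minus replicate 1 of the mimic flow-through on the log2 scale (vertical axis), against the GC content of the canonical transcript in percent (horizontal axis). Red points are the 8 genes, and the line and band give the median and the quartiles of protein-coding genes in 10 GC groups. On the column 2 counts plotted, VIM and ZEB1 fell below the band and CAV1 lay above it, but by the sum of columns 3 and 4 VIM was within the band, at 0.61.

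Taking out each library's GC trend and keeping the 2 fractions of a replicate together altered the calls. With both, edgeR called CAV1 (-1.91, adjusted p = 0.00229), CD44 (-1.77, adjusted p = 0.00475) and EGFR (-1.19, adjusted p = 0.0268) lower in the AGO2-IP, 3 of the 8, where 12.4% of all genes were called lower and 13.8% higher. AXL was at -0.94 (adjusted p = 0.0498 from edgeR) and missed the fold limit. MET and VIM moved towards 0, to 0.08 and -0.12, and ZEB1 and SNAI2 were at -0.43 and -0.80, with adjusted p-values of 0.197 to 0.891 from edgeR for these 4 genes. The replicate block alone called none of the 8, against 601 of 13078 genes called higher and 664 lower. Taking out the GC trend alone called none of the 8 either, against 468 of 13078 genes higher and 342 lower. CD44 came nearest there (-1.69, adjusted p = 0.0653 from edgeR).

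In control cells, with 1 library per fraction, the log2 ratios have no replicate check and no test. AXL and MET were above 0 in the AGO2-IP, at 0.32 (95% counting interval 0.29 to 0.36) and 0.45 (0.35 to 0.55). VIM was at -0.10 (-0.22 to 0.01), EGFR at -0.39 (-0.50 to -0.28) and SNAI2 at -0.92 (-1.21 to -0.64). CD44 at -1.09 (-1.16 to -1.02), CAV1 at -1.48 (-1.54 to -1.42) and ZEB1 at -2.01 (-2.32 to -1.71) were at most -1, as were 17.6% of 13319 genes, and none of the 8 was at least 1, as were 17.9%. The intervals cover counting error only. The median of the 8 was -0.66, against 0.05 over all genes. These ratios depend on the scaling, since the mitochondrial genes filled much of the control flow-through. With library size alone the median of all genes moved to 0.71 and that of the 8 to 0.02, EGFR and VIM turned to 0.29 and 0.57, and AXL and MET to 0.998 and 1.13, while CD44, CAV1, ZEB1 and SNAI2 stayed below 0.

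**Figure D3:**
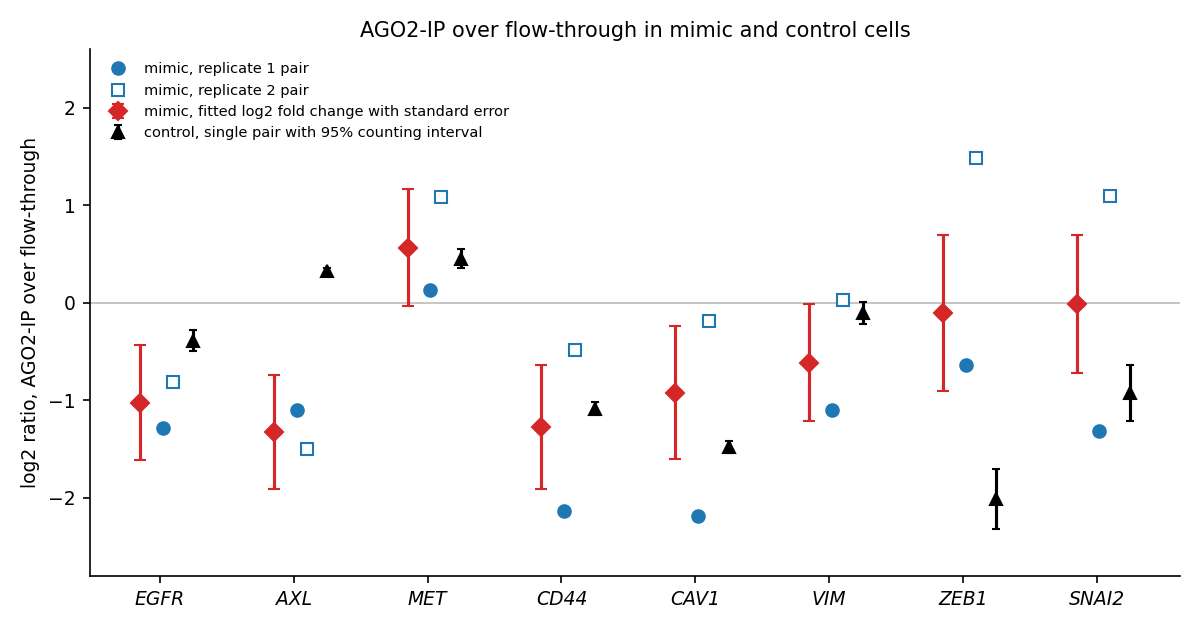
Log2 ratio of AGO2-IP over flow-through for the 8 genes, in mimic cells as the fitted value with its standard error (red diamonds) and within each replicate (blue), and in control cells as the single pair with its 95% counting interval (black). AXL lay below 0 in both mimic replicates and above 0 in control cells. On the column 2 counts plotted, VIM, ZEB1 and SNAI2 had mimic replicates on both sides of 0. By the sum of columns 3 and 4 the fitted value of VIM was -1.41, and its mimic fractions did not overlap in CPM.

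After TMM scaling only AXL of the 8 combined separated mimic fractions with the opposite direction in control cells. Of all genes 11.4% had this pattern. With library size alone EGFR had it too, at 0.29 in control cells. Both its mimic AGO2-IP libraries lay below both mimic flow-through libraries in plain CPM. The difference of the 2 ratios, mimic minus control, was -1.63 for AXL (standard error 1.035, unadjusted p = 0.141, adjusted p close to 1 from edgeR). ZEB1 had the largest value of the 8, at 1.92 (standard error 1.42, unadjusted p = 0.203). Neither edgeR nor DESeq2 called a difference for any of the 8, and 0 had an unadjusted p under 0.05 in edgeR, as had 0.165% of all genes on the lower side and 0.45% on the higher. Without the first mimic flow-through library the value of ZEB1 was 3.85 (adjusted p = 0.0547 from edgeR) and that of AXL -1.89 (adjusted p = 0.155).

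Between the AGO2-IP libraries of mimic and control cells, the 5 receptor and membrane genes had values below 0 with the mimic, while VIM, ZEB1 and SNAI2 had values above 0. None of the 8 was called by edgeR or DESeq2. AXL had the lowest log2 fold change, at -2.11 (standard error 0.697, unadjusted p = 0.011, adjusted p = 0.542 from edgeR). CD44 was at -1.86 (standard error 0.735, unadjusted p = 0.0266) and MET at -1.71 (standard error 0.702, unadjusted p = 0.032). These 3 genes were under an unadjusted p of 0.05, as were 4.93% of all genes on the lower side, and 0.165% of all genes were called lower and 0% higher. EGFR was at -1.22 and CAV1 at -0.72. For all 5 both mimic libraries lay below the control library, as they did for 39.2% of all genes, though the second CAV1 library did so by 0.08 only. VIM at 0.62 and ZEB1 at 1.81 (standard error 1.09, unadjusted p = 0.123) had both mimic libraries above the control library, as had 41.3% of all genes. SNAI2, at 0.70, had 1 mimic library on each side. By the sum of columns 3 and 4 VIM was at 0.30. The control library is assumed to vary like the mimic libraries, an assumption that 1 library cannot test.

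In the flow-through the same 5 membrane genes lay below the control library in both mimic libraries, as 21.2% of all genes did. MET was lowest, at -1.84 (standard error 0.702, unadjusted p = 0.0231), followed by CD44 at -1.69 (standard error 0.735, unadjusted p = 0.041), both from edgeR. These were the 2 of 8 under an unadjusted p of 0.05, where 1.33% of all genes were on the lower side. CAV1 was at -1.29, EGFR at -0.60 and AXL at -0.48. VIM was at 1.12 with both mimic libraries above the control, as 32.1% of all genes were. By the sum of columns 3 and 4 VIM was at 1.53. ZEB1 at -0.11 and SNAI2 at -0.22 had 1 mimic library on each side. No gene of the 8 was called by edgeR or DESeq2, and all adjusted p-values from edgeR were 1, while 0.113% of all genes were called lower and 0% higher. The median of the 8 was -0.54, against 0.19 over all genes. This comparison and that between the AGO2-IP libraries share no library. They are not independent, since both come from 1 fit and same-numbered mimic libraries are fractions of 1 biological replicate. Each also leans on 1 control library of the make-up given above, whose part in these values was not tested.

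**Figure D4:**
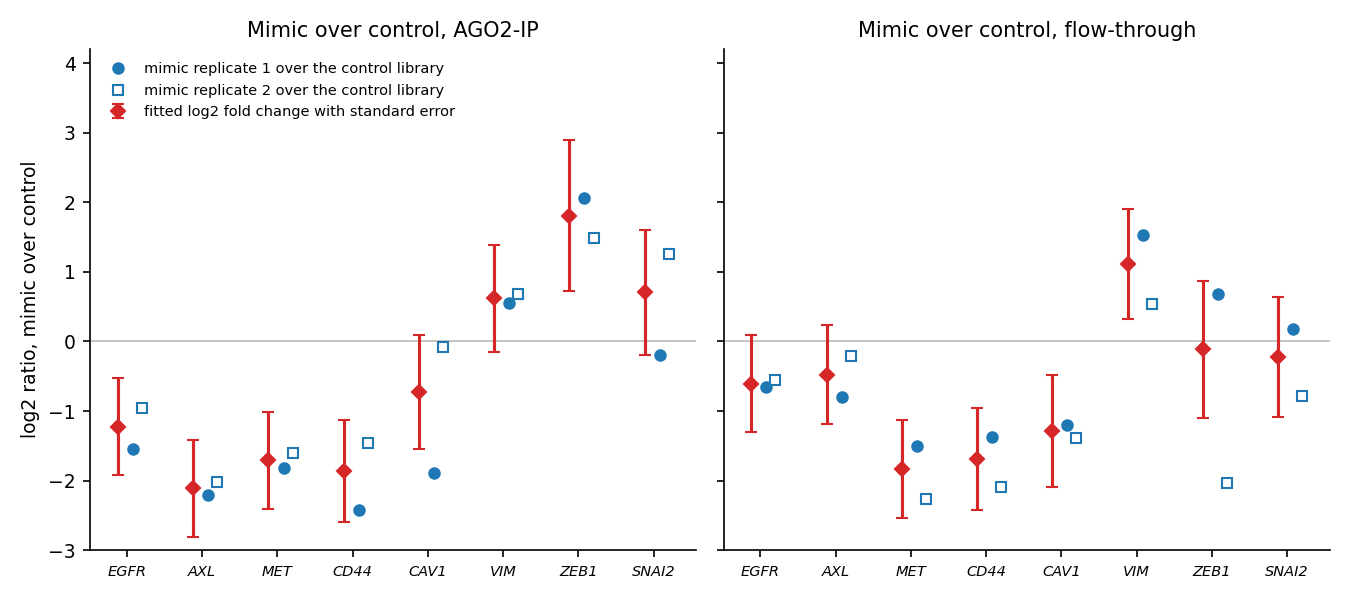
Log2 ratio of mimic over control in the AGO2-IP (left) and the flow-through (right). Red diamonds are fitted values with standard errors, and blue symbols are each mimic replicate over the single control library. AXL, MET, CD44, EGFR and CAV1 sat below 0 in both fractions and VIM above 0 in both.

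Genes that work with the 8 gave no calls either. Among 9 ligands of the receptors 7 were tested in the mimic fractions, 0 were called and the median log2 fold change was -0.25. GAS6, the ligand of AXL, had the highest mean level of them, and had 156.9 and 89.2 CPM in the mimic AGO2-IP and 300.1 and 1060 in the mimic flow-through, a log2 value of -2.66 (adjusted p = 0.0976 by edgeR). TGFA, a ligand of EGFR, was at -0.25. HGF, the ligand of MET, was next to undetected, with 3 to 26 counts in a library.

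Of 11 other receptor tyrosine kinases 0 were called, and 9 had values below 0 in the mimic fractions (median -0.52). In control cells all 11 were above 0, with a median log2 ratio of 0.73, and between the AGO2-IP libraries 10 of 11 had values below 0 with the mimic, with a median of -1.92 against 0.08 over all genes and 6 at an unadjusted p under 0.05 by edgeR. EPHA2 and FGFR1, the most abundant, were at -0.08 and -0.52 in the mimic fractions and at 1.08 and 0.88 in the control pair. In the difference of the ratios all 11 were below 0, with a median of -1.38 against -0.13 over all genes, and 0 had an unadjusted p under 0.05 from edgeR. All these values rest on the same control libraries as those of EGFR, AXL and MET.

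The 16 adaptor and RAS-MAPK genes showed no common direction in the mimic fractions, with 9 above 0, 7 below and a median of 0.01. The most abundant were PTPN11, the phosphatase SHP2, at 1.11 (adjusted p = 0.264 from edgeR), and NRAS at 1.55 (adjusted p = 0.195). Of 7 genes for CD44 partners, hyaluronan and ERM proteins 6 were tested, and 5 were above 0 (median 0.77). MSN and EZR, which tie membrane proteins such as CD44 to actin, were at 1.10 and 1.76, the opposite side of 0 from CD44. Of 7 caveolar genes 6 were tested and 5 were below 0 (median -1.03), with CAVIN1 at -1.23 and EHD2 at -2.37 (adjusted p = 0.0987 from edgeR). None of these genes was called.

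Of 12 other mesenchymal genes 9 were tested, with 6 below 0 in the mimic fractions (median -1.06) and 8 below 0 between the AGO2-IP libraries (median -1.58). TGFBR2, a receptor for TGF-beta and among the most abundant of them, was at 0.83 in the mimic fractions and at -0.57 between the AGO2-IP libraries. Of 7 other EMT transcription factors only 3 were tested, with SNAI3, TWIST1, TWIST2 and PRRX1 under 200 counts. ZEB2 and SNAI1 were at 1.14 and 0.70 in the mimic fractions and, as ZEB1 was, above 0 between the AGO2-IP libraries, at 1.17 and 2.32. The SNAI1 value rests on 12 counts in the only control AGO2-IP library, against 158 and 353 in the mimic AGO2-IP. ZEB2 had 112 counts in that control library. The 9 epithelial genes tested had a median of -0.87 in the mimic fractions, led in abundance by KRT8 (-1.81) and KRT19 (-1.30). Of the hormone receptor, HER2 and luminal genes 3 of 6 were tested (median -0.42), with ERBB2 at -1.07 and GATA3 at -0.42. Of 5 basal genes, 4 keratins and their regulator TP63, only TP63 was tested, at -0.47, and KRT17 had at most 32 counts in a library. PECAM1, the 1 gene tested of the blood, endothelial and liver markers, was at -1.46. None of the genes in these lists was called in any of the comparisons.

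The profiles of the 8 genes over the 6 libraries fell near each other in some pairs. The distance used was the root mean square difference of the centred log2 CPM after TMM. It was taken on column 2 counts, which held 9.27% of the strand counts of VIM in the second mimic flow-through. Distances on the sum of columns 3 and 4 were not computed. EGFR and AXL were the closest pair (0.34), then CD44 and CAV1 (0.45), while VIM was closest to SNAI2 (0.58). Among all protein-coding genes the nearest were AUP1 (0.07) and EPHX4 (0.10) to EGFR, SLC41A3 (0.11) and SEMA4F (0.12) to AXL, and PRCP (0.11) and PTPRK (0.13) to MET. They were HSD17B12 (0.14) and KDELR1 (0.16) to CD44, GLIS3 (0.25) and CHMP4C (0.25) to CAV1, PSTK (0.09) and AP2B1 (0.17) to VIM, SMIM8 (0.13) and SOCS4 (0.16) to ZEB1, and PXK (0.16) and CACNB4 (0.19) to SNAI2. For scale, the 8 genes themselves spanned 1.45 (SNAI2) to 3.51 (CD44) between their lowest and highest library. With 6 libraries such distances describe these libraries alone.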

How the data were processed

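Per the labels and the study's methods, the authors trimmed paired-end reads (Cutadapt 3.5), aligned them to GRCh38 (STAR 2.7.11b) and counted read pairs per gene. The deposited values are these counts, without normalization. The Ensembl release is not given in the sources used here, and 60463 of 60708 identifiers were named from GENCODE 44. Gene counts ran from 7772149 to 48544756 per library. The MGIEasy kit was not described as stranded and 49.0% to 55.1% of strand counts were in column 3, so column 2 was used.

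The 8 genes, the gene lists and the tests were chosen with earlier results of these data known. Mimic fractions were compared with edgeR 4.0.16 (R 4.3.3; glmQLFit and glmQLFTest, TMM) for genes whose counts summed to 200 or more. Mimic and control were compared in 1 fit of 4 groups over 6 libraries, where p-values for a single control library rest on the spread of the mimic replicates. Control ratios used TMM CPM with a prior count of 2. p-values were Benjamini-Hochberg adjusted over all genes tested. The same-numbered libraries are the 2 fractions of 1 biological replicate, and their deviations from the group means correlated across 13078 genes (Pearson's r 0.324, Spearman's rho 0.236). The code was tested on simulated counts that varied less between replicates than these data (biological coefficient of variation 0.527 in the mimic fractions). That test therefore does not show how many true changes are found here. Named are all 8 genes, the called and the 2 most abundant genes of each list, and the 2 nearest profiles of each gene; other named genes are markers, and 1 gene that this rule names is not reported here. Alternatives were other scalings and filters, strand columns, DESeq2 1.42.0, the replicate block, GC trends (lowess span 0.2), thinned counts and libraries left out. The sum of columns 3 and 4 was added after the data were seen for the comparisons.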

Additional observations from a re-analysis of the deposited data

Results flagged for a closer look

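AXL was singled out because its direction differed between mimic and control cells. In mimic cells the log2 fold change of AGO2-IP over flow-through was -1.33, with single differences from -1.69 to -0.91, and in control cells the log2 ratio of the single pair was 0.32. The test of the difference gave -1.63 with an adjusted p close to 1 from edgeR, so it did not pass, and 11.4% of all genes showed this kind of opposition. AXL was not alone in this. Of 11 other receptor tyrosine kinases 9 were below 0 in the mimic fractions and all 11 above 0 in the control pair. With library size alone EGFR was also above 0 in the control pair, at 0.29. Over 13 alternative settings the control ratio of AXL stayed above 0, but its size varied. It ran from 0.09 with at least 200 counts in every library to 0.998 with library size alone, where the median of all genes was 0.71. The part of the control libraries' make-up in this was not tested. No group held enough libraries for a test of single outlying libraries.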

How the results depend on the processing

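In the mimic fractions the count of called genes (0 of the 8) was 3 under the replicate block with the GC trend removed (CAV1, CD44 and EGFR), and ran from 0 to 2 with 1 library left out, the 2 being AXL (-1.64) and ZEB1 (1.76) without the first flow-through library. The replicate block alone changed no call where it was fitted, and turned ZEB1 to 0.42. ZEB1 was 0.11 and SNAI2 0.27 with a summed count of at least 10, and SNAI2 0.00319 with DESeq2's size factors and with its Wald test. With 1 library left out the median of the 8 ran from -1.17 to -0.48, ZEB1 from -0.94 to 1.76 and SNAI2 from -0.95 to 0.53. In the control pair the median (-0.66) was 0.01697 with library size alone, -0.45 with a summed count of at least 10, -0.48 with at least 200 counts in every library (6 genes, without ZEB1 and SNAI2, whose median was -0.25 before), -0.78 with column 3, -0.86 with thinned counts and -0.87 with protein-coding genes only. Between the flow-through libraries the median (-0.54) was -0.11 with library size alone, -0.22 with a summed count of at least 10, -1.06 with at least 200 counts in every library (the same 6 genes, -0.95 before) and -0.93 without mitochondrial genes in the library size, and ran from -1.11 to -0.76 with 1 library left out. ZEB1 turned there to 0.51 with library size alone and 0.41 with a summed count of at least 10 and ran from -2.06 to 0.64 with 1 library left out, and SNAI2 to 0.31 and 0.21, running from -0.81 to 0.15. Between the AGO2-IP libraries SNAI2 ran from -0.23 to 1.25. For the difference of the ratios the median (-0.02) was -0.76 with library size alone, -0.37 with the GC trend removed, 0.01828 with DESeq2's size factors, 0.01826 with its Wald test, 0.05512 with a summed count of at least 10, 0.04564 with column 4, 0.01869 with thinned counts and 0.13 with protein-coding genes only, and ran from -0.46 to 0.39 with 1 library left out. MET turned there to -0.61 and CAV1 to -0.14 with library size alone, and to -0.36 and -0.38 with the GC trend removed. With 1 library left out MET ran from -0.20 to 0.56, CD44 from -0.60 to 0.22, CAV1 from -0.48 to 1.20 and VIM from -0.91 to 0.08518. By the sum of columns 3 and 4, chosen after the data were seen, VIM held place 1, AXL 2 and CAV1 3 in the mimic flow-through. On that sum VIM was at -1.23 in the difference of the ratios, against -0.50 on column 2. The causes were not tested. With 2 replicates and 1 control library the standard errors rest on few libraries.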
